A study of Mus musculus with 8 samples.

Results

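Vascular smooth muscle cells and pericytes, together called mural cells, are described here by 9 genes chosen by symbol, Myh11, Tagln, Cnn1, Lmod1, Smtn, Rgs5, Pdgfrb, Notch3 and Myocd, out of 23045 genes listed for mouse hearts. Of these, 1 of 9 passed the test between genotypes, where 7.91% of all tested genes did, so the count is close to the background. Notch3, a receptor of mural cells, was lower in hearts lacking Mettl3 in cardiomyocytes, at 80.1% of the mean of control hearts. The contractile genes Myh11, Tagln, Cnn1 and Lmod1 had higher means in those hearts and the contractile gene Smtn a lower one, all with values that overlapped those of controls, and none of them passed. Mettl3 encodes the methyltransferase that deposits m6A on RNA, and the comparison sets its loss in cardiomyocytes beside the levels of genes typical of other cells of the heart.

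Mural cells wrap the endothelial tube of every vessel. Smooth muscle cells of arteries contract by sliding smooth muscle myosin along actin, under a transcription programme in which myocardin (Myocd) joins the serum response factor SRF at CArG boxes near contractile genes. Pericytes sit on capillaries, are recruited by PDGF-B from endothelium through the receptor PDGFRB, and keep contact with endothelial cells through NOTCH3 and its Jagged ligands.

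Total RNA of bulk heart tissue was sequenced in 4 WT libraries, labelled Mettl3lox/lox, and 4 Mettl3 KO libraries, labelled Mettl3lox/lox:alphaMHC-MerCreMerpos. All mice carried the floxed Mettl3 alleles. According to the methods of the study, they were 10 to 16 weeks old when injected. They received 100 µg tamoxifen per g body weight on 7 consecutive days. The reporting summary of the study lists C57Bl6 among its laboratory animals, in an entry apart from that of this line. The alphaMHC promoter drives the inducible Cre in cardiomyocytes, so mural cells were not its target, and WT mice had no transgene, so effects of Cre and of Mettl3 loss cannot be told apart. The labels do not say that each library came from a separate mouse, so p-values measure the spread between these libraries. Values are DESeq2-normalized read counts rounded to whole numbers, and their sum per library was 2839589 to 2881849 in WT and 2840184 to 2916986 in Mettl3 KO hearts. Mettl3 itself had 105, 133, 118 and 107 normalized read counts in the WT libraries against 74, 68, 69 and 78 in those of Mettl3 KO hearts, a log2 difference of -0.67 (± 0.10 SE, adjusted p = 0.000184 by limma with Benjamini-Hochberg adjustment, BH, over all tested genes).

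Promoter sequences are shown for Notch3, the gene that passed, and for Rgs5 and Lmod1, an abundant pericyte gene and a contractile gene that did not. They come from RefSeq on GRCm38.p6, run 5′ to 3′ on the strand of the gene and span 250 bases before to 50 after the annotated start. Capitals mark GC boxes (GGGCGG) and CCAAT boxes (CCAAT) read on either strand. The windows are chr17:32166841-32167140 on the minus strand for Notch3, and chr1:169655251-169655550 and chr1:135324563-135324862 on the plus strand for Rgs5 and Lmod1.
Notch3: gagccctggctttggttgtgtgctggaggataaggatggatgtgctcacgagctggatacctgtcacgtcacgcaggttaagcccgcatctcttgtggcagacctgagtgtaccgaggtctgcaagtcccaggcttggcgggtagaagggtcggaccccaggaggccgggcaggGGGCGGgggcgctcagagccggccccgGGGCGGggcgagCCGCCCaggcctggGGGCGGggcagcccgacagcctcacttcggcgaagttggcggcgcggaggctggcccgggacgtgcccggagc
Rgs5: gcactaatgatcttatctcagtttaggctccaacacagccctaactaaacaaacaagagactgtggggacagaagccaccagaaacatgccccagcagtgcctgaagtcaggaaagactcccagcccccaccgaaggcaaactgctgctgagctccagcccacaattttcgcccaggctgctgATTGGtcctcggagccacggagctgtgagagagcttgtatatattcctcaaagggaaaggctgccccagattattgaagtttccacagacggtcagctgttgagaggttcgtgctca
Lmod1: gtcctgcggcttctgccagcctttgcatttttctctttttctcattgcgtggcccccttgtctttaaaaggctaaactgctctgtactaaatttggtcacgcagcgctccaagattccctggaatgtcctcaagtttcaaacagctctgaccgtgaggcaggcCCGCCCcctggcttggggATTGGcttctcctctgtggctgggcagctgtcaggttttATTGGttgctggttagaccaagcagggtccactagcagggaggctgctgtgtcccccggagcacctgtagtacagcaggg
The Notch3 window held 4 GC boxes, which began at positions -76, -49, -37 and -23 from the start site, no CCAAT box, and 25 CpG pairs. Its G and C content of 70% was at percentile 90.4 of all promoter windows. Rgs5 had 1 CCAAT box and no GC box at 52.3% G and C, and Lmod1 had 1 GC box and 2 CCAAT boxes at 55%. Entries for Cnn1 (2 CCAAT boxes) and Smtn (2 GC boxes and 2 CCAAT boxes) were also read, so that the windows of 5 of the 9 genes were read. Across 32851 promoters of the same length, 35.7% held a GC box and 37.4% a CCAAT box on either strand.

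The CArG box was searched on either strand by its name's pattern, an outer pair of C and an outer pair of G around 6 bases of A or T. It was in none of the 5 windows and in 1.63% of all promoters. Myh11, Tagln, Pdgfrb and Myocd had no window that was read, so the search does not cover them. Nor did the 5 windows hold the letters GTGGGAA, which the Notch effector RBPJ can bind (6.38% of all promoters), or TATAAA (13.6%). No match says only that these letters are not within this window. Among 67 genes of the related lists described further on, 55 had a promoter entry and 4 of these held a CArG box. They are shown, with the box in capitals and 15 bases on each side, because they carry the element through which myocardin and SRF act. The windows, also of GRCm38.p6, are chr10:79988529-79988568 (plus strand) for Cnn2, chr2:156775288-156775327 (plus) for Myl9, chr3:81036384-81036423 (plus) for Pdgfc and chr17:46556200-46556259 (minus) for Srf.
Cnn2: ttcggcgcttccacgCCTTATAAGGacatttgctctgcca
Myl9: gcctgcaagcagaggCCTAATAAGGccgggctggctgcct
Pdgfc: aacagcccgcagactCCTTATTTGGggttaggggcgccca
Srf: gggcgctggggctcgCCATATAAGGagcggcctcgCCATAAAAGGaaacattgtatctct
The genotype differences of these 4 genes are given with their lists.

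All 9 genes were detected in every library, and their levels spanned a wide range. Divided by exon length (union of exons in GENCODE M21), Rgs5 was the most abundant in WT hearts at 332 ± 9.98 normalized read counts per kb (SD, n = 4). Smtn followed at 147 ± 6.03, Myocd at 94.3 ± 12.1 and Pdgfrb at 71.5 ± 4.58 (SD, n = 4). Myh11 at 36.1 ± 2.7 and Notch3 at 32.0 ± 1.44 were next, the closest neighbours in the order, with ranges of mean ± SD that just overlapped. Tagln had 19.0 ± 2.03 per kb, Lmod1 6.08 ± 1.64 and Cnn1 1.46 ± 0.790 (SD, n = 4). In Mettl3 KO hearts the order was alike down to Myh11 at 40.7 ± 4.50, but Notch3 at 25.7 ± 2.36 and Tagln at 25.7 ± 4.91 had the same mean per kb (SD, n = 4). The exon lengths are those of another annotation than the one counted, so they set the order only approximately.

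Notch3 is a transmembrane receptor that mural cells use to receive Jagged signals and that arterial smooth muscle needs to mature. Notch3 (ENSMUSG00000038146, mm39 chromosome 17, 32339794 to 32385826, minus strand) had 255, 264, 272 and 245 normalized read counts in WT replicates 1 to 4 and 203, 227, 183 and 217 in Mettl3 KO replicates 1 to 4. All 4 Mettl3 KO libraries lay below the lowest WT library. The means were 259 ± 11.6 and 207.5 ± 19.1 (SD, n = 4), with a log2 difference of -0.32 (± 0.07 SE, 95% interval -0.47 to -0.17, BH-adjusted p = 0.00639). This corresponds to 0.721 to 0.888 times the WT level. It passed in 18 of 19 alternatives, with the highest adjusted p among the 8 that left out a library at 0.0409, without Mettl3 KO replicate 3. The exception was a fit with an index of atrial genes as covariate, in which the log2 difference was also -0.32 (± 0.11 SE, BH-adjusted p = 0.125). A long non-coding RNA on the opposite strand, Gm17276 (mean 65 normalized read counts), overlaps Notch3, and the counts were made by strand.

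Rgs5 and Pdgfrb, the other receptor-pathway genes of mural cells, had means in Mettl3 KO hearts close to those of WT and did not pass. Rgs5, a regulator that speeds the shut-off of G protein signals and marks pericytes (ENSMUSG00000026678, chromosome 1, 169483070 to 169523382, plus strand), had 1525, 1454, 1495 and 1561 normalized read counts in the WT libraries against 1412, 1525, 1418 and 1330 in those of Mettl3 KO hearts. Of the Mettl3 KO libraries 3 lay below all WT libraries, and replicate 2 reached the level of WT replicate 1. The log2 difference was -0.09 (± 0.04 SE, BH-adjusted p = 0.243), with a 95% interval from 0.886 to 1.00 times WT. It was -0.06 without Mettl3 KO replicate 4 (BH-adjusted p = 0.524) and -0.12 without Mettl3 KO replicate 2 (BH-adjusted p = 0.107). Pdgfrb, the receptor for PDGF-B (ENSMUSG00000024620, chromosome 18, 61178222 to 61218133, plus strand), had 357, 389, 412 and 408 in the WT libraries against 363, 361, 373 and 378 in those of Mettl3 KO hearts. WT replicate 1 lay below all Mettl3 KO libraries and the other 3 WT libraries above them. Its log2 difference of -0.08 (± 0.06 SE, BH-adjusted p = 0.458) had a 95% interval from 0.869 to 1.02 times WT. For Pdgfrb it was -0.13 without WT replicate 1 (BH-adjusted p = 0.241) and -0.05 with the atrial index as covariate (BH-adjusted p = 0.823).

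Among the contractile genes, Myh11 and Tagln had higher values in 3 of 4 Mettl3 KO libraries than in any WT library. Myh11, the heavy chain of smooth muscle myosin and the most specific of these genes for smooth muscle (ENSMUSG00000018830, chromosome 16, 14012399 to 14109236, minus strand), had 264, 256, 303 and 273 normalized read counts in the WT libraries against 262, 334, 335 and 307 in those of Mettl3 KO hearts. Mettl3 KO replicate 1 was at the WT level, below 3 of the 4 WT libraries. The means were 274 ± 20.5 and 309.5 ± 34.2 (SD, n = 4), with a log2 difference of 0.17 (± 0.08 SE, BH-adjusted p = 0.197) and a 95% interval from 1.01 to 1.26 times WT before adjustment. Tagln, which encodes the actin-binding protein transgelin (ENSMUSG00000032085, chromosome 9, 45840917 to 45847356, minus strand), had 40, 36, 42 and 33 in the WT libraries against 37, 52, 59 and 56 in those of Mettl3 KO hearts. Mettl3 KO replicate 1 again lay within the WT values. Its means were 37.8 ± 4.03 and 51.0 ± 9.76 (SD, n = 4), with a log2 difference of 0.41 (± 0.16 SE, BH-adjusted p = 0.129). Without Mettl3 KO replicate 1 both genes passed, Myh11 at 0.25 (± 0.07 SE, BH-adjusted p = 0.0260) and Tagln at 0.55 (± 0.15 SE, BH-adjusted p = 0.0231). With the atrial index as covariate they were at 0.07 (BH-adjusted p = 0.824) and 0.11 (BH-adjusted p = 0.883). Lmod1, described next, stayed at 0.51 in that fit (BH-adjusted p = 0.465).

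Cnn1 and Lmod1 were low genes with wide spreads. Lmod1, the leiomodin of smooth muscle that nucleates actin filaments (ENSMUSG00000048096, chromosome 1, 135252545 to 135295803, plus strand), had 30, 15, 24 and 27 normalized read counts in the WT libraries against 34, 35, 28 and 33 in those of Mettl3 KO hearts. Of the WT libraries 3 lay below all Mettl3 KO libraries, and WT replicate 2 was the lowest of all. The log2 difference was 0.46 (± 0.20 SE, BH-adjusted p = 0.197), and 0.26 without WT replicate 2 (BH-adjusted p = 0.502). Cnn1, which encodes calponin, an actin-binding regulator of contraction (ENSMUSG00000001349, chromosome 9, 22010512 to 22020926, plus strand), had 7, 3, 2 and 4 in the WT libraries against 4, 9, 7 and 7 in those of Mettl3 KO hearts. These values are a few reads per library, since 3 reads correspond to 2.78 to 3.33 normalized read counts. Its log2 difference of 0.68 (± 0.39 SE, BH-adjusted p = 0.343) had a 95% interval from 0.922 to 2.80 times WT. With the atrial index as covariate the sign of Cnn1 turned, at -0.21 (± 0.59 SE, BH-adjusted p = 0.909).

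Smtn, which encodes smoothelin of the contractile cytoskeleton (ENSMUSG00000020439, chromosome 11, 3467523 to 3490612, minus strand), went the other way from the rest of the contractile group. It had 629, 669, 613 and 661 normalized read counts in the WT libraries against 553, 557, 597 and 631 in those of Mettl3 KO hearts. Mettl3 KO replicates 1 to 3 lay below every WT library, and replicate 4 lay among them. The means were 643 ± 26.4 and 584.5 ± 36.8 (SD, n = 4), with a log2 difference of -0.14 (± 0.05 SE, BH-adjusted p = 0.114). With the atrial index as covariate it was -0.25 (SE 0.07) and passed (BH-adjusted p = 0.0497). Of 19 alternatives this was the only one in which Smtn passed. Mettl3 KO replicate 1, the lowest for Smtn, had an atrial index within the WT values, so this fit leans largely on that replicate. Genes on the opposite strand overlap Smtn (Gm11946) and Tagln (Gm48529 and Pcsk7), and the counts were made by strand.

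Myocd, the cofactor that drives the contractile programme in smooth muscle and is also made by cardiomyocytes (ENSMUSG00000020542, chromosome 11, 65067387 to 65160815, minus strand), had 510, 697, 589 and 628 normalized read counts in the WT libraries against 640, 574, 618 and 662 in those of Mettl3 KO hearts. Both the lowest and the highest library were WT. The log2 difference was 0.05 (± 0.07 SE, BH-adjusted p = 0.779), with a 95% interval from 0.935 to 1.14 times WT, and it was -0.032 without WT replicate 1.

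**Figure D1:**
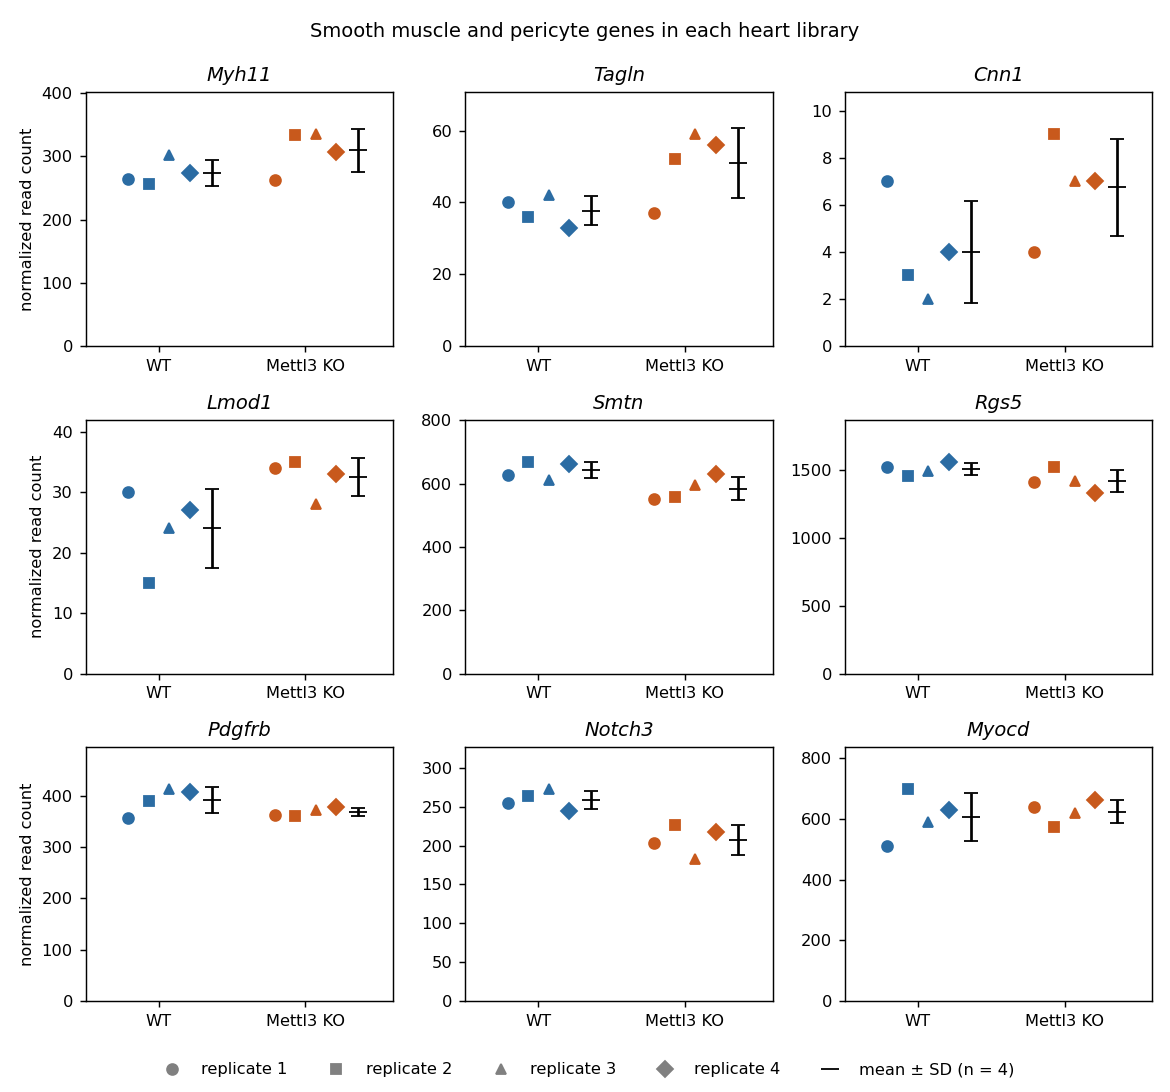
Normalized read counts (vertical axes, from 0) of the 9 smooth muscle and pericyte genes in each WT (blue) and Mettl3 KO (orange) heart library, with 1 marker shape per replicate number and the mean ± SD (n = 4) as a black bar. Notch3 is the panel in which all 4 Mettl3 KO points lie below all WT points, while Mettl3 KO replicate 1 (circle) lies at the WT level for Myh11 and Tagln.

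Set against all genes, 1 of 9 passed (BH-adjusted p under 0.05), 0 higher and 1 lower, where 7.91% of 20313 tested genes passed, 4.72% higher and 3.19% lower. WT and Mettl3 KO values were apart, with no overlap, for 1 of 9, compared with 11.5% of all tested genes. At an unadjusted p under 0.05 there were 5 of 9 (Myh11, Tagln, Lmod1, Smtn and Notch3), compared with 20.6% of all tested genes. The median log2 difference was 0.05, and -0.01 over all tested genes. By role, the 5 contractile genes had a median of 0.41 with 4 of 5 above 0 (Smtn below it), and the 3 mural signalling genes had a median of -0.09 with 0 of 3 above 0. With the atrial index as covariate, Cnn1 was below 0 as well. Whether the groups of genes differ was not tested. In bulk heart RNA, fewer cells of a type and less RNA per cell cannot be told apart.

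**Figure D2:**
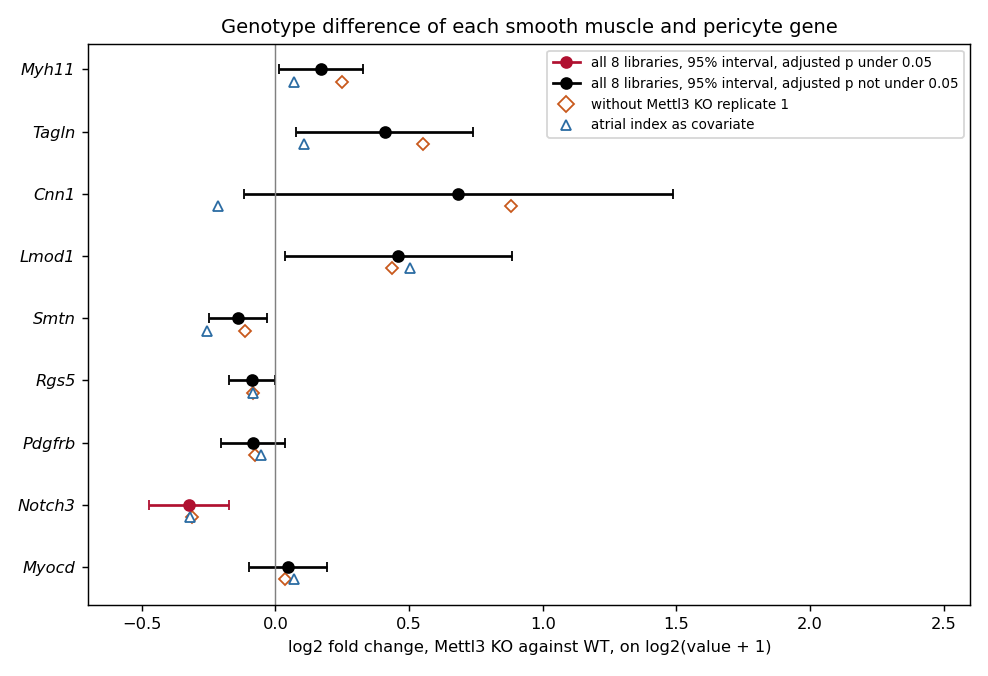
Log2 fold change of each gene in Mettl3 KO against WT hearts on the log2(value + 1) scale (horizontal axis), as the estimate from all 8 libraries with its 95% interval (filled circles, red where the adjusted p was under 0.05), without Mettl3 KO replicate 1 (open diamonds) and with the atrial index as covariate (open triangles). Notch3 stayed near -0.32 in all 3 fits, whereas Myh11 and Tagln were highest without Mettl3 KO replicate 1 and closest to 0 with the index.

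Markers of other cell types and of atrial tissue differed between the same libraries. The summed level of the atrial markers Myl7, Bmp10 and Sln was 0 to 38 in WT libraries and 33, 294, 277 and 541 in Mettl3 KO replicates 1 to 4, and all 3 passed as higher (2 of 3 with limma voom). Bmp10 was at 0 in every WT library and in Mettl3 KO replicate 1. That replicate was also the lowest of its genotype for 4 of the 5 contractile genes (all but Lmod1), 7 of 14 other contractile genes (50%) and 0 of 3 mural signalling genes, compared with 25.7% of all tested genes. It was the lowest for 4 of 8 genes of the SRF and myocardin pathway (50%), 7 of 18 Notch and PDGF partners (38.9%), 4 of 13 other pericyte genes (30.8%) and 4 of 14 paralogues (28.6%). These counts were made after the values were seen. The part of atrial tissue in the contractile differences was not tested beyond the fit with the atrial index, the mean log2(value + 1) of those 3 genes. Mettl3 KO replicate 1 had an index of 2.68, within the 0 to 2.82 of WT libraries. The genotype difference in that fit therefore leans largely on this replicate against WT. The background for the counts of marker genes is 7.91% of all tested genes that passed (4.72% higher and 3.19% lower) and 20.6% at an unadjusted p under 0.05. Of 7 fibroblast markers 6 were higher, with a summed level of 3311 to 3719 in WT and 4162 to 4828 in Mettl3 KO hearts. Of 7 endothelial markers 3 were lower and 1 was higher, with 4296 to 4440 in WT and 3938 to 4275 in Mettl3 KO hearts. Their part in the lower Notch3 level was not tested.

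The mural signalling genes had a summed level of 2107 to 2214 in WT and 1925 to 2113 in Mettl3 KO hearts, and the contractile genes one of 970 to 998 and 890 to 1034, both overlapping. Each sum mostly follows its most abundant gene. In WT means, Smtn made up 643 of 983 in the contractile sum and Rgs5 1509 of 2159 in the mural signalling sum. Of 7 cardiomyocyte markers 0 passed (1 at an unadjusted p under 0.05, and summed levels of 13014 to 14122 and 13107 to 14670). The 6 skeletal muscle and 3 adipocyte markers also gave 0 calls (1 and 1 at an unadjusted p under 0.05), with summed levels of 1051 to 1165 against 1057 to 1235 and of 1 to 7 against 5 to 11. With limma voom these 3 lists gave 0 calls as well. Of 5 macrophage markers 1 was lower (922 to 1175 against 889 to 1058). No marker list had a gene that was at 0 in all libraries.

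**Figure D3:**
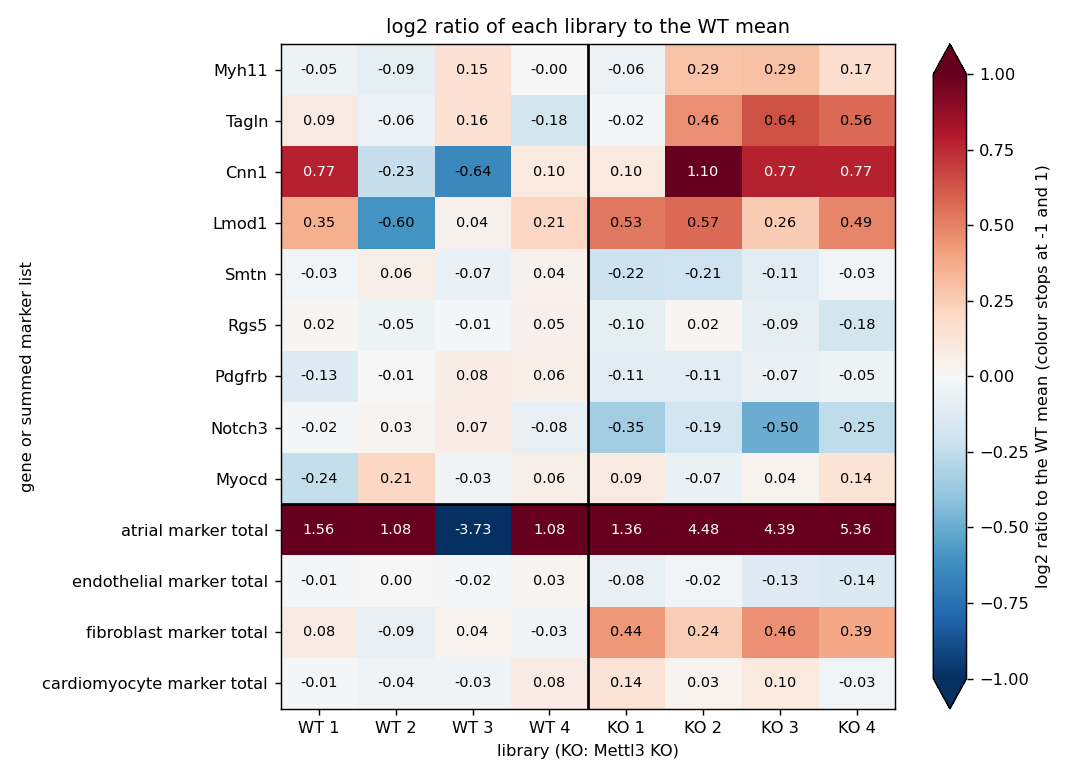
Log2 ratio of each library (columns) to the mean of the 4 WT libraries, on log2(value + 1), for the 9 genes (upper rows) and for summed marker lists (lower rows). The colour scale stops at -1 and 1. Notch3 is below the WT mean in all 4 Mettl3 KO libraries, while Myh11, Tagln and the atrial total are highest in Mettl3 KO replicates 2 to 4.

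A wider list of contractile genes of smooth muscle was read in the same way. Of 14 tested, 1 passed, close to the 7.91% of all tested genes, with a median log2 difference of 0.13 and 10 of 14 above 0. With the atrial index as covariate, Myl9, Tpm2, Itga8, Mustn1 and Aoc3 turned to below 0, and Cald1 and Ppp1r14a to above it. These genes were named after their values were seen. Gucy1a1, a subunit of the guanylate cyclase that responds to nitric oxide and relaxes vessels, had 257, 236, 225 and 254 normalized read counts in the WT libraries against 253, 292, 320 and 284 in those of Mettl3 KO hearts. Again 3 of the Mettl3 KO libraries exceeded every WT library and replicate 1 did not. Its log2 difference of 0.24 (± 0.07 SE, BH-adjusted p = 0.0464) passed in 7 of 19 alternatives and in only 1 of the 8 that left out a library, that without Mettl3 KO replicate 1, with an adjusted p of up to 0.194 among those 8, without Mettl3 KO replicate 3, and of 0.913 with the atrial index. Smooth muscle actin Acta2 (0.14, BH-adjusted p = 0.638), named after its values were seen, spread from 127 to 217 in WT hearts alone. Myl9, a myosin light chain with a CArG box in its promoter window, was at 0.22 (BH-adjusted p = 0.524). With the atrial index as covariate its sign turned, at -0.37 (± 0.21 SE, BH-adjusted p = 0.396).

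In a list of 13 further pericyte genes, 1 passed, again close to the 7.91% of all tested genes, and the median log2 difference was -0.09, with 3 of 13 above 0. Abcc9, the sulfonylurea receptor subunit of the ATP-sensitive potassium channel, which pericytes and cardiomyocytes both express, had 2140, 2105, 2302 and 2174 normalized read counts in the WT libraries against 1980, 1909, 1893 and 1826 in those of Mettl3 KO hearts. No Mettl3 KO library reached the WT values. Its log2 difference was -0.20 (± 0.04 SE, BH-adjusted p = 0.00152), and it passed in 18 of 19 alternatives. The exception was the fit with the atrial index (-0.09, BH-adjusted p = 0.336). Kcnj8, the pore subunit of the same channel, was at -0.23 (± 0.09 SE, BH-adjusted p = 0.156).

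Among 18 Notch and PDGF partners, 4 passed, 3 higher and 1 lower, with a median of -0.08, where 7.91% of all tested genes passed (4.72% higher and 3.19% lower). Jag2, a Jagged ligand, had 166, 181, 184 and 161 normalized read counts in the WT libraries against 147, 136, 141 and 127 in those of Mettl3 KO hearts. The values did not overlap, and the log2 difference was -0.33 (± 0.08 SE, BH-adjusted p = 0.0119). It missed the threshold without Mettl3 KO replicate 4 (BH-adjusted p = 0.0514) or with the atrial index (-0.18, BH-adjusted p = 0.492). Hes1, a repressor induced by Notch and by other signals, was higher in all Mettl3 KO libraries, from 59.0 ± 2.16 to 85.5 ± 3.32 (SD, n = 4), a log2 difference of 0.53 (± 0.11 SE, BH-adjusted p = 0.00230). The other Notch receptors did not pass, with Notch1 at -0.10 (BH-adjusted p = 0.400), Notch2 at 0.05 (BH-adjusted p = 0.778) and Notch4 at -0.16 (BH-adjusted p = 0.339), although Notch4 passed with the atrial index (-0.48, BH-adjusted p = 0.0120). Of the other Notch targets in the list none passed, with Heyl at -0.04 (BH-adjusted p = 0.827), Hey1 at -0.23 (BH-adjusted p = 0.471), Hey2 at -0.02 (BH-adjusted p = 0.946) and Nrarp at -0.34 (BH-adjusted p = 0.157).

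On the PDGF side, 2 genes passed as higher, and neither is Pdgfb or Pdgfd, whose products bind PDGFRB. Pdgfra, the receptor of fibroblasts and also in the fibroblast marker list, rose from a mean of 443.8 ± 43.2 to one of 558 ± 23.3 (SD, n = 4), a log2 difference of 0.33 (± 0.06 SE, BH-adjusted p = 0.00105) that passed in all 19 alternatives. Pdgfc, a ligand of PDGFRA whose promoter window holds a CArG box, rose from 28.0 ± 7.07 to 50.3 ± 5.68 (SD, n = 4), a log2 difference of 0.85 (± 0.18 SE, BH-adjusted p = 0.00400). All its Mettl3 KO values (42 to 54) exceeded the WT values (19 to 35). With the atrial index Hes1 was at 0.48 and Pdgfc at 0.90, with a larger SE of 0.17 and 0.29, and neither passed (BH-adjusted p = 0.124 and adjusted p = 0.0793). Pdgfb was at -0.27 (± 0.11 SE, BH-adjusted p = 0.143) and Pdgfd at 0.0027 (± 0.08 SE, BH-adjusted p = 0.997).

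None of 8 genes of the SRF and myocardin pathway passed with limma on log2 values or with limma voom, where 7.91% of all tested genes passed with limma. At an unadjusted p under 0.05 there were 2 of 8, Srf and Elk1, near the 20.6% of all tested genes, and the list median was 0.02. Elk1, an SRF partner, was at 0.31 (± 0.10 SE, BH-adjusted p = 0.0761). Mef2c and Mrtfb, the most abundant, were at -0.06 (BH-adjusted p = 0.525) and 0.04 (BH-adjusted p = 0.748). Srf, with 2 CArG boxes in its own window, had 189 to 205 normalized read counts in WT and 213 to 229 in Mettl3 KO hearts. These values did not overlap, and the log2 difference of 0.15 (± 0.07 SE, BH-adjusted p = 0.185) did not pass.

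Among 13 tested paralogues (of 14, since Smtnl1 was below the filter) 3 passed, 2 higher and 1 lower, with a median of -0.05, where 7.91% of all tested genes passed. Myh14, a non-muscle myosin heavy chain related to Myh11, dropped from means of 564.8 ± 57.2 to 404 ± 15 (SD, n = 4) in normalized read counts, a log2 difference of -0.48 (± 0.06 SE, BH-adjusted p = 2.31e-05), and passed in all 19 alternatives. Lmod2 and Lmod3, the leiomodins of striated muscle, were higher, at 0.20 (± 0.05 SE, BH-adjusted p = 0.0109) and 0.28 (± 0.05 SE, BH-adjusted p = 0.00173). Lmod2 missed the threshold when WT replicate 1 or Mettl3 KO replicate 3 was left out or with the atrial index, with an adjusted p of at most 0.0640, and Lmod3 missed it with the atrial index alone, at 0.25 (± 0.08 SE, BH-adjusted p = 0.0920). Cnn2, the calponin with a CArG box, was at 0.15 (BH-adjusted p = 0.332). Names outside the rule for naming genes (Acta2, Myl9, Kcnj8, Srf, Elk1, Cnn2, Pdgfb, Pdgfd, Heyl, Hey1, Hey2, Nrarp and Notch1, Notch2 and Notch4) were chosen after their values were seen.

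**Figure D4:**
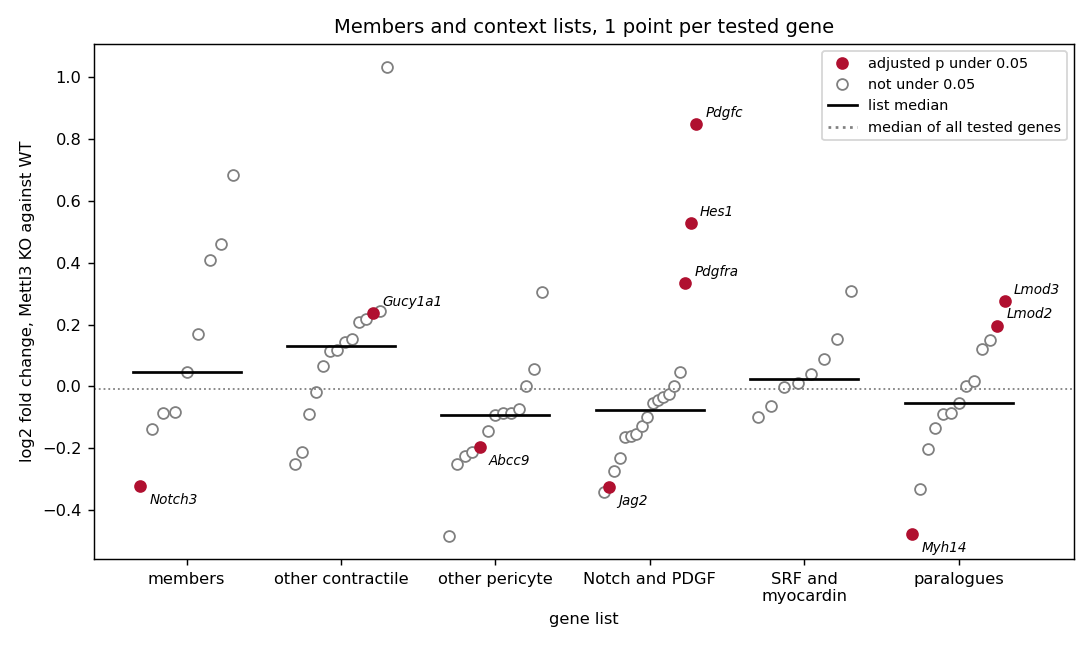
Log2 fold change in Mettl3 KO against WT hearts (vertical axis) of each tested gene of the 9 members and of 5 related lists (horizontal axis), with red points for an adjusted p under 0.05, black bars for list medians and a dotted line for the median of all tested genes. The medians lie between -0.09 and 0.13, and the passing genes are Notch3, Gucy1a1, Abcc9, 4 Notch and PDGF partners and 3 paralogues.

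The 8 genes whose pattern over the 8 libraries was most like that of Myh11 were Gnpda2, Mapk1ip1, Pmm1, Tmem115, Trub2, Otud1, Eif1ax and Wipf2. Likeness is the root mean square difference of centred log2(value + 1) profiles among 12027 genes with a mean of at least 20, and it ran from 0.0194 for Gnpda2 to 0.0699 for Wipf2, against a median of 0.204 over all those genes. The other members were farther from Myh11, with 0.170 for Pdgfrb, 0.174 for Rgs5, 0.175 for Tagln, 0.207 for Smtn, 0.209 for Myocd, 0.285 for Notch3 and 0.323 for Lmod1. Cnn1 was below that filter. The measure is a description over 8 libraries of 2 genotypes, and it grows with the noise of low genes such as Lmod1. It also does not scale profiles by their size. Pdgfrb (log2 difference -0.08) and Rgs5 (-0.09) thus scored as near to Myh11 (0.17) as Tagln (0.41) did, although their sign was opposite.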

How the data were processed

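Total RNA of mouse heart was sequenced in 8 stranded libraries (4 WT, 4 Mettl3 KO) as 72 base single-end reads. According to the submitters' processing notes and the methods of the study, reads were trimmed with Trimmomatic 0.39, aligned with STAR 2.7.11a to mm39 (Ensembl release 109), freed of duplicates with Picard 3.1.1 and counted strand by strand on exons (featureCounts 2.0.4), and multi-mapping, ribosomal and mitochondrial reads were discarded. The deposited values are scores in the sense of DESeq2-normalized counts (DESeq2 1.36.0) that the authors rounded to whole numbers, so the main test was not a count model. Only limma voom, run as an alternative, took them as counts. From the spacing of low values, the libraries held 2631305 to 3062459 counted reads. This limits precision for genes of few reads.

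The 9 members and all lists were chosen with earlier results of these data known. limma 3.58.1 (R 4.3.3) was run on log2(value + 1) of the 20313 genes whose mean reached 1, which set aside 2732. The model held genotype alone, and the prior variance followed the mean. This scale understates the change of low genes. Tests were two-sided, and p was adjusted by Benjamini-Hochberg over all tested genes, with a threshold of 0.05. Named were all 9 members, in each related list the genes that passed or otherwise the 2 most abundant, the totals of marker lists, Mettl3, and the 8 genes closest to Myh11. The 19 alternatives were other pseudocounts (0.5 and 5), no filter or a mean of at least 10, 3 other scalings, limma voom, robust moderation, a replicate block, an atrial index as covariate and each library left out in turn. Promoter sequences and exon lengths are of GRCm38, and their coordinates were not mixed with mm39.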

Additional observations from a re-analysis of the deposited data

How the results depend on the processing

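Over the alternatives, Notch3, Smtn, Rgs5 and Pdgfrb stayed below 0 and Myh11, Tagln and Lmod1 above 0. With the atrial index as covariate, Notch3 no longer passed (-0.32, BH-adjusted p = 0.125), Smtn passed (-0.25, BH-adjusted p = 0.0497) and Cnn1 turned to -0.21 (BH-adjusted p = 0.909). That index also differs between the genotypes, at 0 to 2.82 in WT libraries and 6.24 to 7.14 in Mettl3 KO replicates 2 to 4. Mettl3 KO replicate 1, at 2.68, lay within the WT values, so results of this fit lean largely on that replicate. All genes passing numbered 903 with the index, of which 590 were among the 1607. The same fit gave 0 other pericyte genes, 1 other contractile gene (Synpo2 at 0.26, BH-adjusted p = 0.0118, in place of Gucy1a1), 2 Notch and PDGF partners (Pdgfra and Notch4) and 1 paralogue (Myh14). Leaving out libraries gave Myh11 values from 0.13 to 0.25, Tagln from 0.33 to 0.55, Notch3 from -0.37 to -0.26 and Myocd from -0.032 to 0.12, with 1 to 3 of 9 members passing (3 without Mettl3 KO replicate 1) and 1005 to 1593 of all genes (1005 without Mettl3 KO replicate 3, 967 of them among the 1607). The same settings gave 0 to 2 other contractile genes and 1 to 2 other pericyte genes. Other contractile genes passing numbered 0 with equal totals, upper quartile scaling, limma voom or the replicate block. Cnn1 has no value under the filter of 10. The cause was not tested. Same-numbered libraries had deviations correlated from -0.04 to 0.09 (0 of 4 numbers over 0.1, and 2 of 4 closest to their own number). The labels give only a number, so no pairing was assumed. With 4 libraries per genotype these correlations cannot exclude a shared litter or batch. With the replicate block, Notch3 stayed at -0.32 (BH-adjusted p = 0.0198), and 1346 genes passed, 1304 of them among the 1607.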

Other observations

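Further genes of the endothelial and mural cell border had values that did not overlap between genotypes without passing the test, and they were named after their values were seen. Higd1b, a pericyte gene, had 22 to 28 normalized read counts in WT and 16 to 21 in Mettl3 KO hearts, a log2 difference of -0.48 (± 0.20 SE, BH-adjusted p = 0.160). Jag1, the other Jagged ligand measured, had 163 to 176 in WT and 146 to 159 in Mettl3 KO hearts, a log2 difference of -0.15 (± 0.07 SE, BH-adjusted p = 0.233). The share of all tested genes without overlap was 11.5%.

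Mylk, the kinase that phosphorylates myosin light chains and so starts smooth muscle contraction, differed from Myh11 and Tagln in sign. It, Steap4 and Anpep were also named after their values were seen. It had 230, 245, 266 and 242 normalized read counts in the WT libraries against 184, 230, 214 and 221 in those of Mettl3 KO hearts, a log2 difference of -0.21 (± 0.08 SE, BH-adjusted p = 0.0883). Steap4, a metalloreductase listed with the pericyte genes, was at -0.21 (± 0.07 SE, BH-adjusted p = 0.0752). Anpep, an aminopeptidase of the same list, had the opposite sign, with 81.0 normalized read counts on average in WT and 99.5 in Mettl3 KO hearts, a log2 difference of 0.31 (± 0.13 SE, BH-adjusted p = 0.173).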
